A study of Rattus norvegicus with 8 samples.

Results

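The hypothalamus of offspring of calorie-restricted rat mothers was compared with that of offspring of normally fed mothers, over both postnatal treatments. All 8 arrays of the series entered: 4 from restricted offspring (CR) and 4 from controls (Con), chosen by the diet in their labels. For each gene the mean of the Con-s and Con-l group means was subtracted from the mean of the CR-s and CR-l group means, on the log2 scale, so a positive difference means a higher level in CR. Every sample was total RNA from the hypothalamus of female Sprague-Dawley offspring aged 21 days, measured on the Affymetrix Rat Gene 1.0 array. Con-s and Con-l came from mothers fed normally through pregnancy and lactation, with saline or leptin. CR-s and CR-l came from mothers whose calories were cut by 50% from gestation day 11 to day 21 and also after birth, again with saline or leptin. Per the labels the saline or leptin was given on postnatal days 2 to 8, so no group was left untreated at that age. The sample names can be read as if the mothers had been treated, and the text on the design writes the leptin-treated controls as Con-r, taken here as Con-l from the titles. Each group has 2 arrays, lettered A and B. Nothing in the labels says whether a sample is 1 animal or a pool, or from how many litters, so the p-values measure only the spread between these samples, which may be technical.

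The arcuate nucleus of the hypothalamus holds neurons that make Npy and Agrp, which raise food intake, and neurons that make Pomc and Cartpt products, which lower it. Both receive leptin, the hormone of fat tissue, and both are under the influence of glucocorticoids, the adrenal steroids of fasting and stress. The weeks after birth are also the time when oligodendrocytes wrap the axons of the rat forebrain in myelin, a membrane rich in cholesterol and long-chain lipids.

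Array medians of the deposited intensities lay between 111.8 and 114.1, and between 7.42 and 7.47 over the named genes on the log2 scale. The tissue label was checked against markers. Pmch (11.09 to 11.53), Oxt (10.96 to 11.70), Avp (9.72 to 10.16), Hcrt (9.21 to 9.75) and Npy (8.97 to 10.24) were bright on all arrays, while Pomc (6.21 to 6.58) lay below the array medians. Of the other hypothalamic markers, Sim1 (7.25 to 7.49) lay around the medians and Agrp ran from 7.37 to 8.33. Markers of the pituitary (Prl 4.25 to 4.49, Gh1 5.44 to 6.10) and of the choroid plexus (Ttr 6.18 to 6.92, Kl 6.36 to 6.71) were below the medians too. Among 15 measured pituitary genes, whose median difference was -0.02, Cga had the lowest at -0.87, with CR and Con arrays overlapping. Of the dopamine receptors checked as striatal markers, Drd1 (6.18 to 6.66) was below the medians and Drd2 (8.27 to 8.61) above them on every array. Meningeal Slc6a13 (7.69 to 8.65) and blood-derived Hbb (9.26 to 11.45) were above them. The first principal component, with 28.1% of the variance, put the Con arrays between -9.23 and -4.71 and the CR arrays between 5.25 and 10.1. On the second component (17.3%) CR-s replicate B lay at -14, away from the other arrays (-2.88 to 5.37).

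Of 14506 named genes, 175 (1.21%) passed in limma, with an adjusted p (Benjamini-Hochberg) under 0.05: 47 were higher in CR (0.324% of genes) and 128 lower (0.882%). Most of these differences were modest, with a median size of 0.40 on the log2 scale. Only 9 reached 2-fold, Rbm3 upwards and 8 downwards, and 38 reached 1.5-fold (12 higher, 26 lower). In 173 of the 175 the 4 CR arrays did not overlap the 4 Con arrays, a separation seen in 11.2% of all genes, and the exceptions were Pvr and Trex1. The median difference over all genes was 0.00062, and 50.28% of genes were higher in CR, as values that RMA had already normalized between arrays leave little room for a common shift. The genes just inside the threshold were Morn2 (adjusted p = 0.0498), Oxt (0.0496) and Rangap1 (0.0492), and those just outside were Epc2, Mcam and Necap2 (each 0.0502). The number that passed depended strongly on single arrays. It was 27 without CR-l replicate A, 26 without Con-l replicate B, 15 without CR-s replicate B, 15 without CR-l replicate B, 10 without Con-l replicate A, and 4 without either CR-s replicate A or Con-s replicate A. Leaving out Con-s replicate B left no gene past the threshold in limma (the lowest adjusted p was 0.0791, and 1822 genes had an unadjusted p under 0.05), and so did testing all probe sets, named or not, in limma (lowest adjusted p 0.056, with 3354 below 0.05 before adjustment). Of these 8 fits with an array left out, Rbm3 passed in 7, Ptgds, Enpp2 and Serpinh1 in 6, and Erbb3 and Padi2 in 5.

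**Figure D1:**
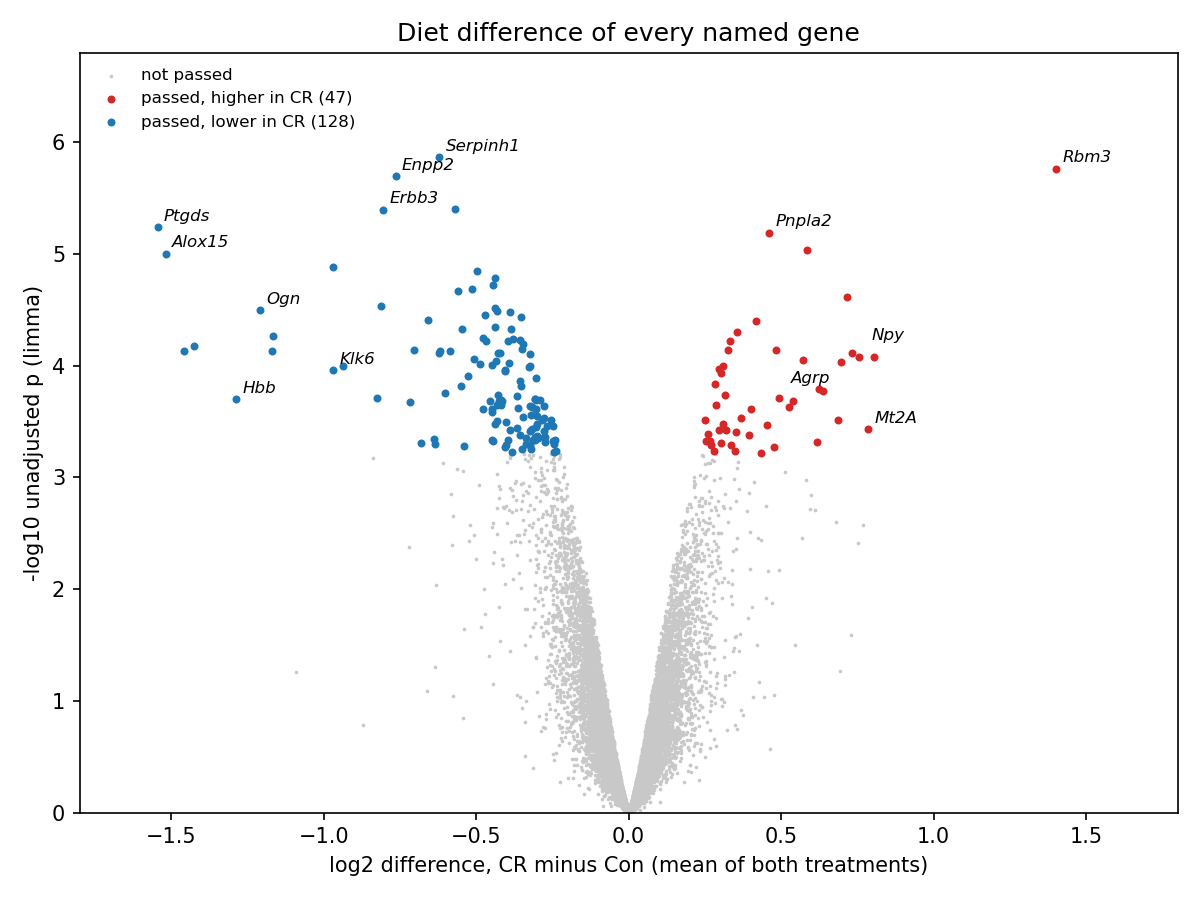
Log2 difference between CR and Con, averaged over saline and leptin (x axis), against -log10 of the unadjusted limma p (y axis) for 14506 named genes, 1 point a gene. The 47 genes that passed higher in CR are red and the 128 that passed lower are blue, with Rbm3 farthest to the right at 1.40 and Ptgds farthest to the left at -1.54.

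Among the peptides of energy balance, the appetite-raising pair of the arcuate nucleus rose and oxytocin fell. Npy, which encodes neuropeptide Y, measured 9.50 and 9.27 in Con-s, 9.11 and 8.97 in Con-l, 9.95 and 9.76 in CR-s, and 10.24 and 9.90 in CR-l (log2 intensity, replicates A and B). All CR arrays lay above all Con arrays, and the rise was 1.69-fold (log2 0.75, SE 0.10, adjusted p = 0.0229). Agrp, whose product blocks the melanocortin receptors, measured 7.54 and 7.50 in Con-s, 7.53 and 7.37 in Con-l, 8.17 and 8.29 in CR-s, and 8.33 and 7.94 in CR-l. The Con arrays of Agrp spanned a narrow range, and its rise of 1.62-fold (log2 0.70, SE 0.09, adjusted p = 0.0233) was nearly the same under saline (0.71) and leptin (0.68). Oxt, the oxytocin gene of magnocellular and parvocellular neurons, measured 11.70 and 11.45 in Con-s, 11.28 and 11.29 in Con-l, 10.96 and 11.08 in CR-s, and 11.04 and 11.10 in CR-l. Its fall (log2 -0.38, SE 0.07, adjusted p = 0.0496) was -0.55 under saline and -0.21 under leptin, with the Con-l arrays lower than the Con-s arrays and the 4 CR arrays alike. With an array left out, Npy and Oxt passed in 0 of 8 fits (limma, adjusted p 0.0502 to 0.0987 for Npy and 0.0925 to 0.164 for Oxt) and Agrp in 2 (0.0457 to 0.102), with the sign kept in all.

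The other genes of this system did not pass. The Pomc arrays overlapped, with 6.31 to 6.58 in Con and 6.21 to 6.34 in CR, a difference of -0.18 (SE 0.05, adjusted p = 0.161). Cartpt differed by -0.22 (SE 0.06, adjusted p = 0.146), with 9.88 to 10.20 in Con and 9.69 to 9.90 in CR. The melanocortin receptors Mc3r (0.23, SE 0.10) and Mc4r (0.09, SE 0.14), the transcription factor of leptin signalling Stat3 (-0.11, SE 0.05), its feedback inhibitor Socs3 (-0.03, SE 0.07) and the growth factor Bdnf (0.01, SE 0.04) had adjusted p-values from 0.330 to 0.939. Among the lateral and paraventricular peptides, Trh differed by 0.17 (SE 0.11), Avp by 0.01 (SE 0.09), Crh by -0.03 (SE 0.05), Hcrt by -0.03 (SE 0.09) and Pmch by -0.06 (SE 0.07). For Crh, the releasing hormone that drives the adrenal axis, the 95% interval of the difference ran from -0.14 to 0.08. Of 12 measured peptides and cofactors that raise food intake 2 passed, both higher (0.324% of all genes). Of 18 peptides that lower it 1 passed, Oxt, which was lower (0.882% of all genes). Nucb2, the precursor of nesfatin, differed by 0.35 without passing (adjusted p = 0.0648). None of 21 receptors of these signals and none of 16 genes of leptin signalling passed. Of all genes 1.21% passed, a share at which lists of this size mostly hold none.

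Among the 54 gene lists examined, genes known to be induced by glucocorticoids held the most rises: 8 of 22 measured passed, all higher, against 0.324% of all genes. The list and the others below were drawn up with earlier results of these data known, so their counts are descriptions and not independent evidence of a direction. Of the 22 genes 21 were higher in CR, 14 with no overlap between the arms (4.52% of all genes), and the median difference was 0.26 (0.24 under saline, 0.33 under leptin). Relative to the Con mean the list's median lay between -0.08 and 0.06 on the Con arrays and between 0.24 and 0.31 on the CR arrays. Zbtb16, a zinc-finger transcription factor, measured 7.97 and 7.93 in Con-s, 7.70 and 7.40 in Con-l, 8.49 and 8.51 in CR-s, and 8.35 and 8.52 in CR-l, a rise of 1.64-fold (log2 0.72, SE 0.08, adjusted p = 0.0218). Fkbp5, a co-chaperone that lowers the affinity of the glucocorticoid receptor, measured 7.26 and 6.91 in Con-s, 7.19 and 6.93 in Con-l, 7.73 and 7.68 in CR-s, and 7.74 and 7.68 in CR-l. Its 4 CR arrays lay within 0.06 of each other, with a mean of 7.71 ± 0.03 (SD, n = 4) against 7.07 ± 0.18 in Con (log2 0.64, SE 0.09, adjusted p = 0.0317). Hif3a, a hypoxia-inducible factor, measured 6.94 and 6.83 in Con-s, 6.35 and 6.59 in Con-l, 7.07 and 7.18 in CR-s, and 7.32 and 7.64 in CR-l. Its arms did not overlap (log2 0.62, SE 0.09, adjusted p = 0.0311), but the gap was 0.24 under saline and 1.01 under leptin. The kinase Sgk1 (0.49, SE 0.07), the triglyceride lipase Pnpla2 (0.46, SE 0.04), the sulfotransferase Sult1a1 (0.48, SE 0.08) and the metallothioneins Mt1 and Mt2A completed the 8. Of the members that did not pass, Gpd1 (0.45, adjusted p = 0.0829), Per1 (0.25, adjusted p = 0.0785), Pdk4 (0.26, adjusted p = 0.0915) and Errfi1 (0.23, adjusted p = 0.0948) had the smallest p-values. Some of these genes, such as Pdk4 and the metallothioneins, are also known targets of fasting or of metals.

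Metallothioneins bind zinc and copper, and their genes are known to respond to metals through metal response elements as well as to glucocorticoids. Mt2A measured 11.03 and 10.83 in Con-s, 10.74 and 10.86 in Con-l, 11.62 and 11.27 in CR-s, and 11.61 and 12.09 in CR-l, a rise of 1.72-fold (log2 0.78, SE 0.13, adjusted p = 0.0416). Mt1 measured 9.05 and 9.04 in Con-s, 8.88 and 8.72 in Con-l, 9.60 and 9.36 in CR-s, and 9.33 and 9.56 in CR-l (log2 0.54, SE 0.08, adjusted p = 0.0325). A second probe set of each gene gave 0.87 for Mt2A and 0.60 for Mt1. Mt3, the form known from neurons and astrocytes, went the other way without passing: 9.74 to 9.95 in Con and 9.65 to 9.72 in CR (-0.16, SE 0.05, adjusted p = 0.163). The zinc exporter Slc30a1, another metal-induced gene, differed by -0.07 (adjusted p = 0.484). Of 10 measured genes of metallothioneins and zinc transport only Mt1 and Mt2A passed, both higher (0.324% of all genes). The 250 bases upstream of these 3 neighbouring genes are shown because their members moved apart. They come from RefSeq on build GRCr8, at chr19:10832976-10833225 for Mt1, chr19:10838709-10838958 for Mt2A and chr19:10856081-10856330 for Mt3, all on the minus strand and written 5′ to 3′ in the direction of the gene. Capitals mark the core of the metal response element, TGCACNC or TGCGCNC, on either strand.
Mt1: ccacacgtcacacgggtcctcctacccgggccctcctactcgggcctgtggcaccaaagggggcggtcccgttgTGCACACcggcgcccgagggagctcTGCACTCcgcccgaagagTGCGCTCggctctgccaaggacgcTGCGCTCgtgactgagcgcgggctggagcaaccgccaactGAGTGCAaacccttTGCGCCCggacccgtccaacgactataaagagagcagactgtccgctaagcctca
Mt2A: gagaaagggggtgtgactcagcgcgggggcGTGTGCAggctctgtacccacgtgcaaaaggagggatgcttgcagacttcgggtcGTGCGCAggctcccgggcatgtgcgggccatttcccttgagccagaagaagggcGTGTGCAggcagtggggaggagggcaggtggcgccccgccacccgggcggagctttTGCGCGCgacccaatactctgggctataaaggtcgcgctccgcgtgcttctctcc
Mt3: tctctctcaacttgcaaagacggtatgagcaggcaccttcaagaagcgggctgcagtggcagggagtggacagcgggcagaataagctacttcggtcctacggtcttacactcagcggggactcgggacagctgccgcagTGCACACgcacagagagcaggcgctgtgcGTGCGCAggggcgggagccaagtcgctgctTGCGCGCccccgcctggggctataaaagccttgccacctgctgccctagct
The core occurred 6 times before Mt1, 4 times before Mt2A and 3 times before Mt3. Mt4, which differed by 0.00 and did not pass, had 1 match. At least 1 match lay in 21.2% of the 27457 RefSeq promoters of this length and in 27.0% of the 11951 found for measured genes. A match is a match of letters only.

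The largest rise of all was that of Rbm3, an RNA-binding protein known to be induced by mild cooling. It measured 9.03 and 8.82 in Con-s, 8.95 and 8.80 in Con-l, 10.17 and 9.94 in CR-s, and 10.37 and 10.72 in CR-l. The Con mean was 8.90 ± 0.11 (SD, n = 4) and the CR mean 10.30 ± 0.33 (n = 4), a rise of 2.64-fold (log2 1.40, SE 0.10, adjusted p = 0.00977). Cirbp, the other classic cold-inducible RNA-binding protein, measured 9.08 and 9.06 in Con-s, 9.13 and 9.04 in Con-l, 9.41 and 9.37 in CR-s, and 9.45 and 9.68 in CR-l. It rose less, by 0.40 (SE 0.06, adjusted p = 0.0336), again with no overlap. The remaining measured genes of this small list, Rtn3 (0.04) and Srsf5 (0.00), did not pass.

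Most chaperone genes were lower in CR, though few passed. Of 19 measured heat shock and cytosolic chaperone genes 17 were lower, 9 of them without overlap (6.67% of all genes), with a median of -0.11. In this list 2 passed, both lower (0.882% of all genes): Fkbp4 (-0.36, SE 0.06), a co-chaperone of steroid receptors, and Chordc1 (-0.40, SE 0.07), a partner of Hsp90. Hsph1, of the Hsp110 family, had the lowest difference of the list (-0.54) and did not pass (adjusted p = 0.0590). Serpinh1, the collagen chaperone Hsp47 of the endoplasmic reticulum, had the smallest p of all genes. It measured 9.12 and 9.09 in Con-s, 9.20 and 9.22 in Con-l, 8.68 and 8.65 in CR-s, and 8.35 and 8.46 in CR-l, a fall of 1.54-fold (log2 -0.62, SE 0.04, adjusted p = 0.00977). Pdia4, a disulfide isomerase, fell by 0.32 on the log2 scale (SE 0.05). Of 23 chaperone and stress genes of the endoplasmic reticulum 17 were lower (median -0.08), 8 of them without overlap (6.67% of all genes). Serpinh1 and Pdia4 were the 2 that passed, both lower (0.882% of all genes). The promoter window of Serpinh1 (GRCr8, chr1:163062977-163063226, minus strand, RefSeq) is shown because it held a heat shock element (GAA, TTC and GAA, or TTC, GAA and TTC, with NN between the triplets, on either strand), in capitals.
Serpinh1: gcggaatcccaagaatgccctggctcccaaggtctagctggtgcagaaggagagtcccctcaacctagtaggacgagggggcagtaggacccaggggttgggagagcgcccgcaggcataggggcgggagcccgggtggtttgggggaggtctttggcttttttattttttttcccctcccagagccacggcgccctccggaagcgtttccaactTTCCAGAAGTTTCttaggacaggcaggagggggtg
Such a match lay in 0.597% of all RefSeq promoters and in 4 of 16 promoters of the heat shock list (Hspa8, Hspd1, Hspe1 and Hsph1), and of these 4 genes none passed. In the endoplasmic reticulum list, to which Serpinh1 belongs, 1 of 20 promoters held a match, that of Serpinh1 itself.

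**Figure D2:**
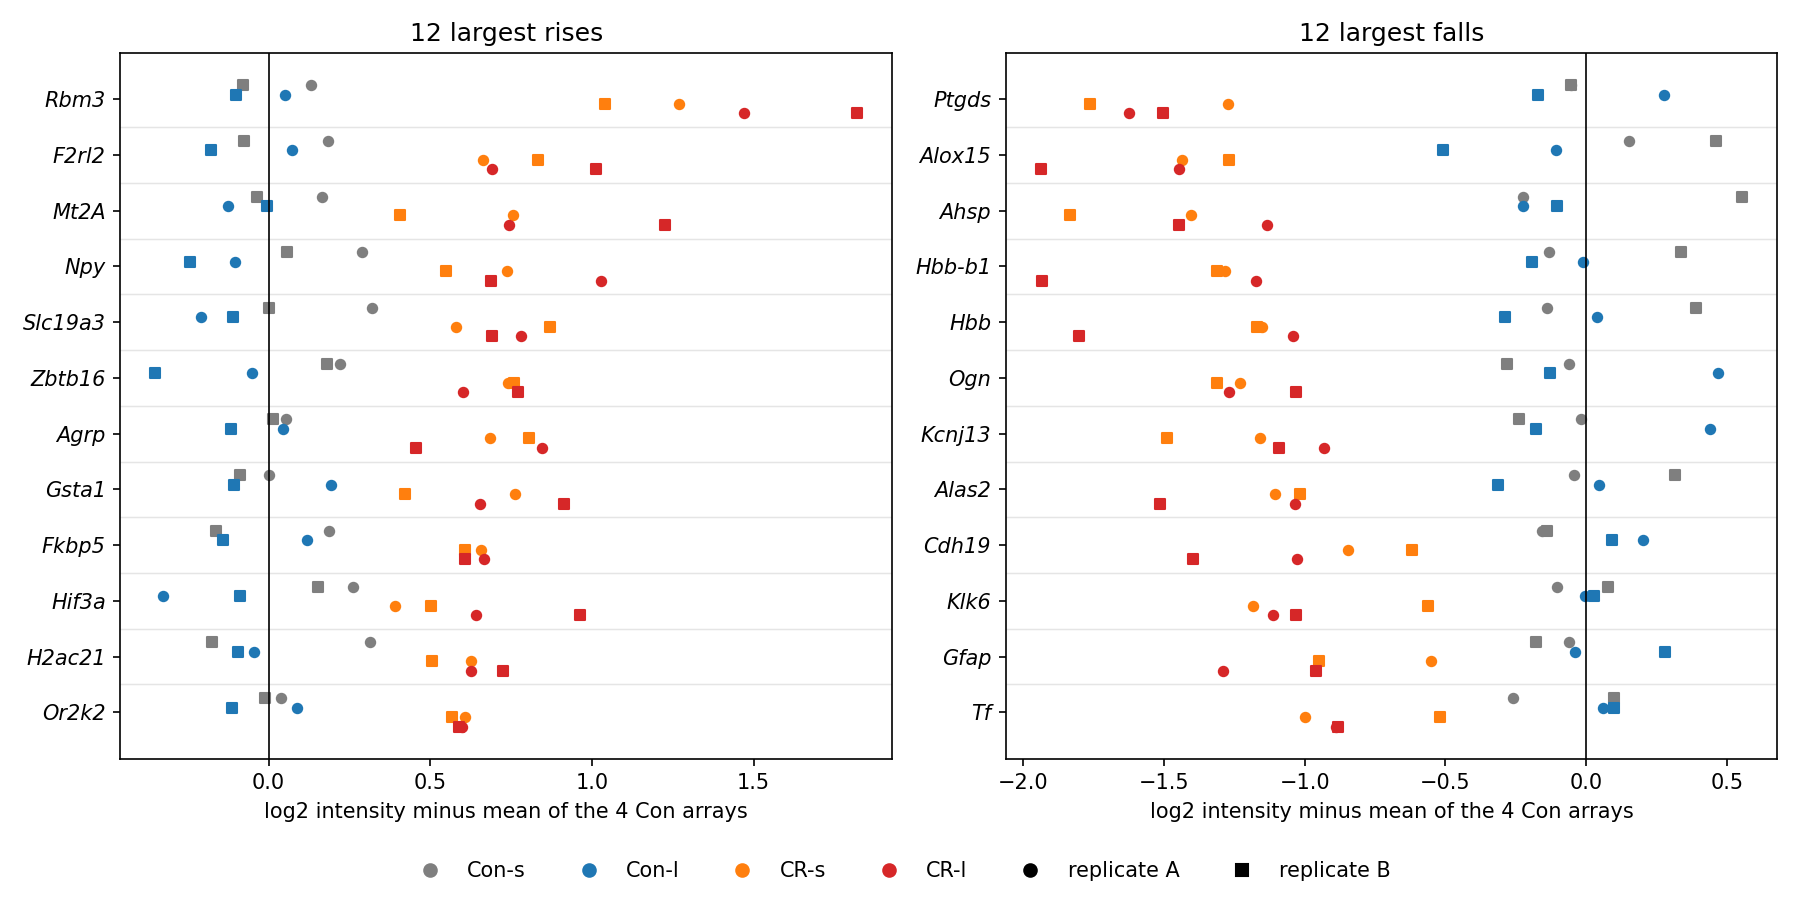
Log2 intensity of each array minus the mean of the 4 Con arrays (x axis) for the genes that passed with the 12 largest rises and the 12 largest falls (rows). Colour gives the group and shape the replicate. In all 24 genes the CR points lie on 1 side of all Con points, with mean gaps from 0.59 (Or2k2) to 1.40 (Rbm3) upwards and from -0.82 (Tf) to -1.54 (Ptgds) downwards.

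Among the 12 largest rises were 5 genes not yet described. F2rl2, which encodes the protease-activated receptor 3, measured 5.91 and 5.65 in Con-s, 5.80 and 5.55 in Con-l, 6.39 and 6.56 in CR-s, and 6.42 and 6.74 in CR-l (log2 0.80, SE 0.10, adjusted p = 0.0229). It was dim, below the array medians on every array. Slc19a3, the thiamine transporter known from brain capillaries and pericytes, measured 8.26 and 7.94 in Con-s, 7.73 and 7.83 in Con-l, 8.52 and 8.81 in CR-s, and 8.72 and 8.63 in CR-l, a rise of 1.66-fold (log2 0.73, SE 0.09, adjusted p = 0.0223). Gsta1, a glutathione transferase of a family of close paralogues, measured 8.84 and 8.75 in Con-s, 9.03 and 8.73 in Con-l, 9.60 and 9.26 in CR-s, and 9.49 and 9.75 in CR-l (log2 0.69, SE 0.11, adjusted p = 0.0384). Among 35 genes of glutathione and oxidant defence it was the only one that passed higher (0.324% of all genes). The secreted peroxidase Gpx3 was the only one that passed lower (-0.35, SE 0.04, 0.882% of all genes). Of the 35 genes 13 were higher and 22 lower, with 5 and 4 of them without overlap (4.52% and 6.67% of all genes). H2ac21, a histone H2A gene, measured 10.19 and 9.70 in Con-s, 9.83 and 9.78 in Con-l, 10.50 and 10.38 in CR-s, and 10.50 and 10.60 in CR-l (log2 0.62, SE 0.10, adjusted p = 0.0449). Or2k2, annotated as an odorant receptor, measured 5.56 and 5.51 in Con-s, 5.61 and 5.41 in Con-l, 6.13 and 6.09 in CR-s, and 6.12 and 6.11 in CR-l (log2 0.59, SE 0.05, adjusted p = 0.0160). Like F2rl2, it lay below the array medians on every array. Histones, odorant receptors and glutathione transferases belong to large families, so probes of H2ac21, Or2k2 and Gsta1 may also bind relatives.

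Genes of fat and ketone use included 2 that passed higher (0.324% of all genes). Acat1, the mitochondrial thiolase of ketone body breakdown, measured 8.82 and 8.67 in Con-s, 8.76 and 8.62 in Con-l, 9.23 and 9.34 in CR-s, and 9.17 and 9.42 in CR-l (log2 0.57, SE 0.07, adjusted p = 0.0233). Pnpla2, the lipase that starts the release of fatty acids from stored triglyceride, measured 8.62 and 8.61 in Con-s, 8.63 and 8.64 in Con-l, 9.03 and 9.00 in CR-s, and 9.19 and 9.13 in CR-l (log2 0.46, SE 0.04, adjusted p = 0.0133). The Con arrays of Pnpla2 were almost identical. Fabp7, the fatty acid binding protein of radial glia and astrocytes, fell by 0.43 on the log2 scale (SE 0.06), and of the 27 measured genes 18 were higher and 9 lower, with 7 and 4 of them without overlap (4.52% and 6.67% of all genes) and a median of 0.03. In the growth factor axis Igfbp3 rose (0.42, SE 0.05) and Igfbp2 fell (-0.40, SE 0.07). These 2 genes encode binding proteins that carry insulin-like growth factors, and none of the other 18 measured members passed (1.21% of all genes passed).

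Red blood cell genes held 4 of the 12 largest falls, and 6 of 15 measured fell, against 0.882% of all genes. Hbb-b1, a beta globin, measured 10.68 and 11.15 in Con-s, 10.80 and 10.62 in Con-l, 9.53 and 9.50 in CR-s, and 9.64 and 8.88 in CR-l, a fall of 2.68-fold (log2 -1.42, SE 0.17, adjusted p = 0.0223). Hbb, annotated separately, measured 10.92 and 11.45 in Con-s, 11.10 and 10.77 in Con-l, 9.91 and 9.89 in CR-s, and 10.02 and 9.26 in CR-l (log2 -1.29, SE 0.19, adjusted p = 0.0325). Beta globin copies are nearly identical, and the probe sets may measure the same transcripts. Ahsp, which stabilises free alpha globin, measured 6.27 and 7.05 in Con-s, 6.27 and 6.39 in Con-l, 5.09 and 4.66 in CR-s, and 5.36 and 5.05 in CR-l (log2 -1.46, SE 0.18, adjusted p = 0.0223). It was dim, with every array below its median. Alas2, the first enzyme of haem synthesis in erythroid cells, measured 8.29 and 8.65 in Con-s, 8.38 and 8.02 in Con-l, 7.23 and 7.32 in CR-s, and 7.30 and 6.82 in CR-l (log2 -1.17, SE 0.14, adjusted p = 0.0223). All these genes were lower on every CR array than on any Con array. The alpha globin Hba-a3 (-0.81, SE 0.09) and the anion exchanger Slc4a1 (-0.70, SE 0.09) also fell, as did Hemgn (-0.56, SE 0.06), an erythroid nuclear protein outside the list. The other 9 members did not pass, among them the transferrin receptor Tfrc (0.18, adjusted p = 0.101) and the embryonic globins Hbe1 (-0.10) and Hbe2 (-0.12), which leaves the list's median at -0.10. The summed intensity of the list was 5667 to 7673 in Con and 3045 to 3905 in CR. In whole tissue, fewer cells of a type and less RNA per cell cannot be told apart, and the amount of blood in the samples is not given in the labels.

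Genes of the meninges, the membranes around the brain, were mostly lower too, and 4 of 26 measured passed, all lower (0.882% of all genes). Ptgds, the prostaglandin D synthase made by meningeal cells, choroid plexus and oligodendrocytes, had the largest fall of all. It measured 11.34 and 11.34 in Con-s, 11.67 and 11.22 in Con-l, 10.12 and 9.63 in CR-s, and 9.77 and 9.89 in CR-l. The means were 11.39 ± 0.19 (SD, n = 4) in Con and 9.85 ± 0.21 (n = 4) in CR, a fall of 2.92-fold (log2 -1.54, SE 0.13, adjusted p = 0.0133). Ogn, osteoglycin, a small proteoglycan of connective tissue, measured 9.67 and 9.45 in Con-s, 10.20 and 9.60 in Con-l, 8.50 and 8.42 in CR-s, and 8.46 and 8.70 in CR-l (log2 -1.21, SE 0.13, adjusted p = 0.0223). The GABA and betaine transporter Slc6a13 (-0.60, SE 0.09) and the collagen Col1a2 (-0.32, SE 0.05) fell as well. Of 26 measured meningeal genes 21 were lower and 11 were without overlap (6.67% of all genes), with a median of -0.23. The median of the list was highest on Con-l replicate A, 0.22 above the Con mean, and between -0.09 and -0.05 on the other Con arrays, against -0.29 to -0.19 on the CR arrays. Without Con-l replicate A the median difference was -0.17, and over all 8 fits with an array left out it ran from -0.34 to -0.17. The summed intensity of the list was 8685 to 10928 in Con and 5804 to 6558 in CR.

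Some genes of connective tissue matrix fell. Serpinh1, the prolyl hydroxylase P4ha1 (-0.45, SE 0.05) and Col1a2 fell among 26 measured genes of collagens and their processing (median -0.08). Ogn and Igfbp2 fell among 30 proteoglycans and other matrix genes (median -0.16). Of all genes, 0.882% passed lower. Col1a1, the partner chain of Col1a2, differed by -0.24 and did not pass (adjusted p = 0.0959). In the choroid plexus list, Kcnj13 and Enpp2 passed of 20 measured, both lower (0.882% of all genes). Kcnj13, a potassium channel of transporting epithelia, measured 6.78 and 6.56 in Con-s, 7.24 and 6.62 in Con-l, 5.64 and 5.31 in CR-s, and 5.87 and 5.71 in CR-l (log2 -1.17, SE 0.14, adjusted p = 0.0223). All of these values are below the array medians. The median of the choroid plexus list was -0.00, and its defining markers Ttr (6.18 to 6.92 in Con, 6.22 to 6.74 in CR) and Kl overlapped between the arms. Alox15, an arachidonate lipoxygenase, measured 9.24 and 9.55 in Con-s, 8.98 and 8.58 in Con-l, 7.65 and 7.82 in CR-s, and 7.64 and 7.15 in CR-l. Its fall of 2.86-fold (log2 -1.52, SE 0.14, adjusted p = 0.0160) was next in size to that of Ptgds. These were the 2 of 23 eicosanoid genes that passed (0.882% of all genes passed lower). Of the other lipoxygenases of the list, Alox5 stood at 0.46 (adjusted p = 0.138) and Alox12 at -0.11 (adjusted p = 0.490), and neither passed.

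**Figure D3:**
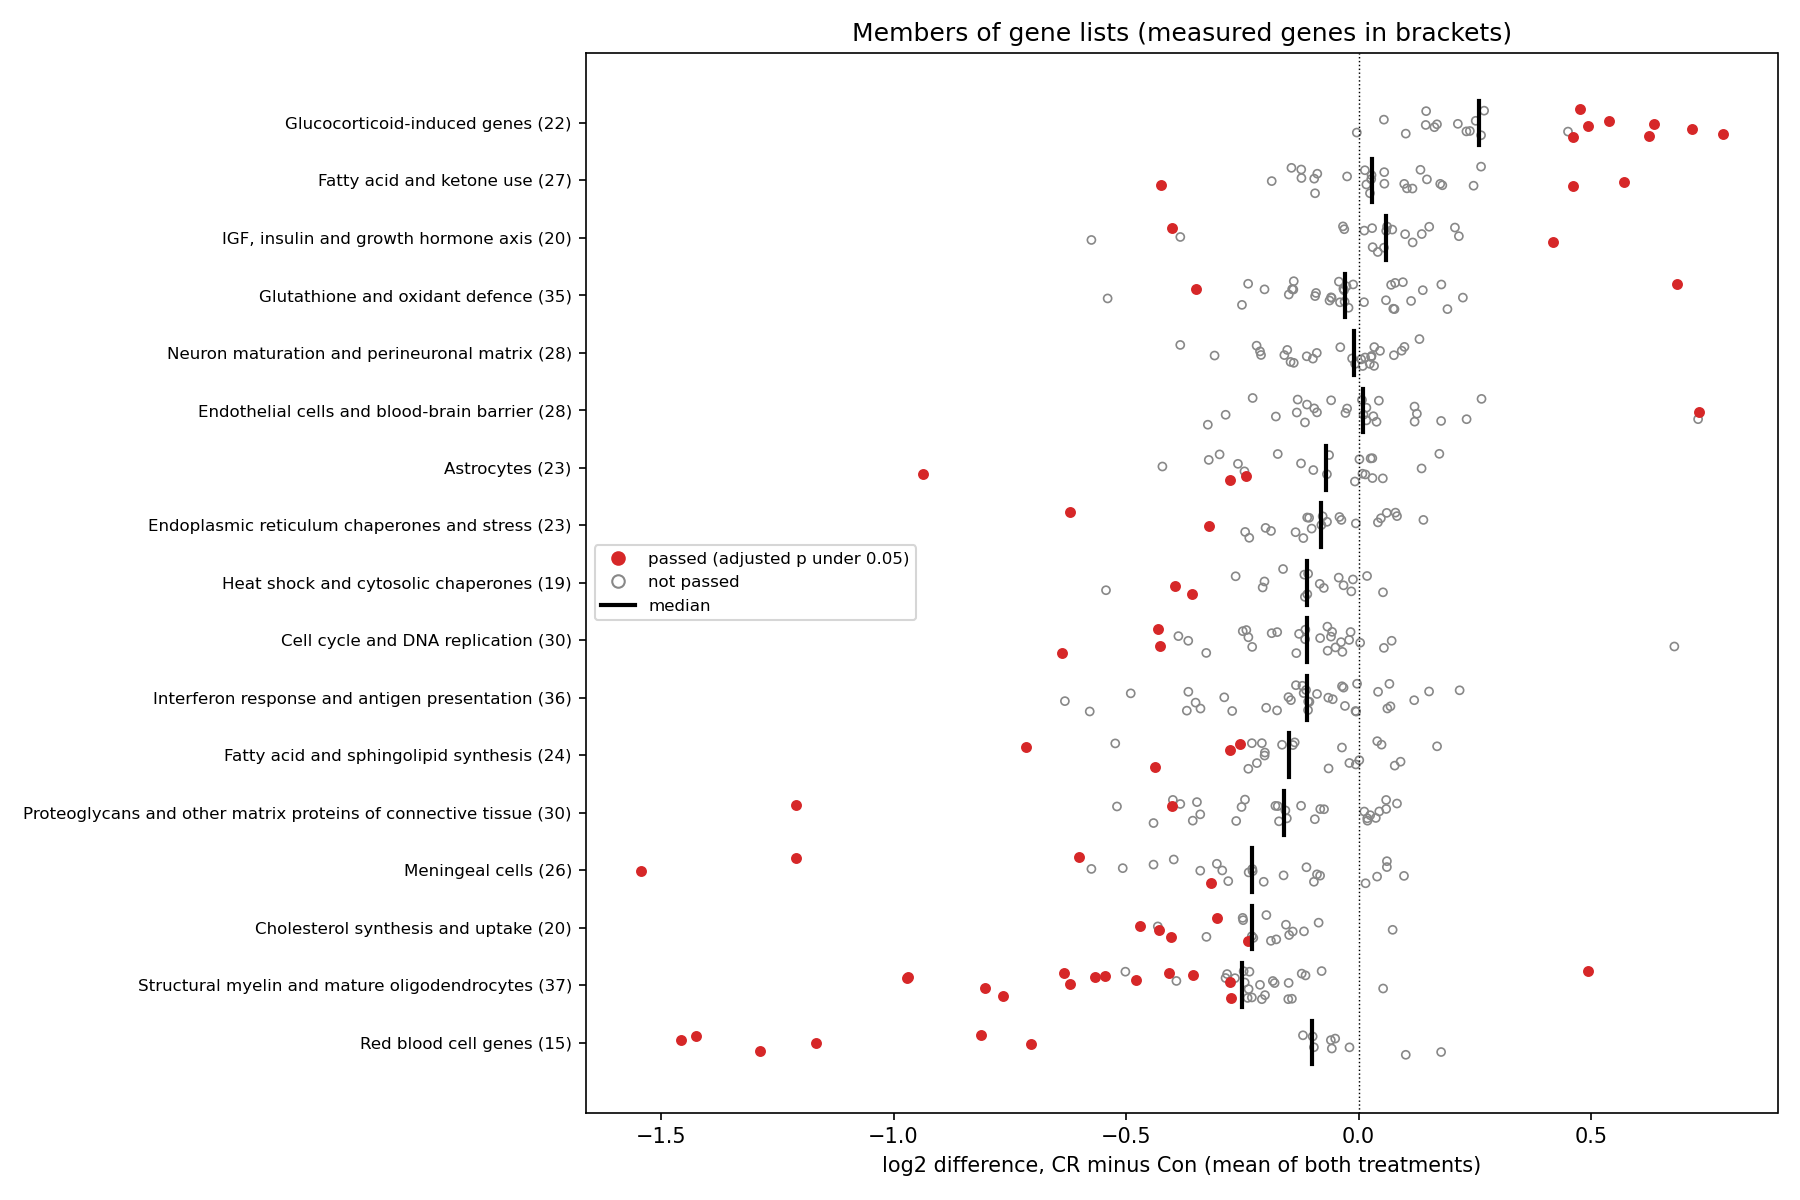
Log2 difference between CR and Con (x axis) of each measured member of 17 gene lists (rows), with members that passed as filled points and the list median as a bar. The glucocorticoid list has its median at 0.26 and the myelin list at -0.25, while the red blood cell list splits into 6 genes that passed far to the left and 9 between -0.12 and 0.18.

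Myelin and mature oligodendrocyte genes were the list with the most falls of the 54: 35 of 37 measured genes were lower, 25 of them without overlap (6.67% of all genes). Of the 14 that passed 13 were lower (0.882% of all genes) and Sgk1, which is also in the glucocorticoid list, was higher. The median difference was -0.25 (-0.21 under saline, -0.31 under leptin). Klk6, a secreted protease of oligodendrocytes, measured 10.00 and 10.18 in Con-s, 10.10 and 10.13 in Con-l, 8.92 and 9.54 in CR-s, and 8.99 and 9.07 in CR-l (log2 -0.97, SE 0.13, adjusted p = 0.0236). Cdh19, a cadherin of glia that wrap axons, measured 6.40 and 6.42 in Con-s, 6.76 and 6.65 in Con-l, 5.71 and 5.94 in CR-s, and 5.53 and 5.16 in CR-l (log2 -0.97, SE 0.09, adjusted p = 0.0186). Its difference was -0.58 under saline and -1.36 under leptin, and it lay below the array medians on every array. Tf, transferrin, the iron carrier that oligodendrocytes make in quantity, measured 10.92 and 11.28 in Con-s, 11.24 and 11.28 in Con-l, 10.18 and 10.66 in CR-s, and 10.29 and 10.30 in CR-l (log2 -0.82, SE 0.12, adjusted p = 0.0325). Tf is outside the list. Erbb3, a neuregulin receptor, measured 8.15 and 8.25 in Con-s, 8.39 and 8.15 in Con-l, 7.52 and 7.45 in CR-s, and 7.44 and 7.33 in CR-l (log2 -0.80, SE 0.06, adjusted p = 0.0116). Enpp2, autotaxin, measured 11.30 and 11.45 in Con-s, 11.38 and 11.52 in Con-l, 10.73 and 10.77 in CR-s, and 10.59 and 10.51 in CR-l (log2 -0.76, SE 0.06, adjusted p = 0.00977). Padi2, which citrullinates myelin proteins, had CR arrays of 9.52, 9.54, 9.54 and 9.54 against 10.03 to 10.20 in Con (log2 -0.57, SE 0.05, adjusted p = 0.0116). Gamt, an enzyme of creatine synthesis, the galactolipid enzyme Ugt8, the myelin enzyme Cnp, and Ermn, Ndrg1, Apod, Plekhb1 and Nkx6-2 fell by 0.27 to 0.63 on the log2 scale.

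Several abundant myelin genes did not pass. Mbp was lower on every CR array (12.78 to 12.86) than on any Con array (12.92 to 13.01), yet its difference of -0.15 (SE 0.04, adjusted p = 0.168) did not pass. Mobp (-0.23, adjusted p = 0.0702), Mal (-0.39, adjusted p = 0.0842) and Pllp (-0.29, adjusted p = 0.0592) did not pass either. Among 16 genes of oligodendrocyte precursors none passed (1.21% of all genes passed), with a median of -0.12, and Olig1 (-0.20, adjusted p = 0.0887) and Vcan (-0.16, adjusted p = 0.117) had the smallest p-values. Bmp4, a growth factor that acts on these precursors, had the widest gap of the list (-1.09) but did not pass (adjusted p = 0.332). Red blood cell and meningeal genes were lower on the same CR arrays, with the summed intensities given above, and their part in the falls of Serpinh1 and of the oligodendrocyte, astrocyte and lipid genes was not tested.

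Astrocyte genes were split. Gfap, the intermediate filament of astrocytes, measured 9.79 and 9.67 in Con-s, 9.81 and 10.13 in Con-l, 9.30 and 8.90 in CR-s, and 8.56 and 8.89 in CR-l, a fall of 1.91-fold (log2 -0.94, SE 0.12, adjusted p = 0.0233). Agt, angiotensinogen (-0.28, SE 0.04), and the receptor Gpr37l1 (-0.24, SE 0.04) also fell, and the water channel Aqp4 stood at -0.42 without passing (adjusted p = 0.0702). Of the 23 measured genes 14 were lower and 3 passed, all lower (0.882% of all genes), and the median was -0.07. Grm3, a glutamate receptor prominent in astrocytes, fell by 0.45 on the log2 scale (SE 0.06). It was the single gene of 32 in the glutamate list that passed (0.882% of all genes passed lower). Of 18 measured mural cell genes only Rgs5 (-0.38, SE 0.05) and Tagln (-0.35, SE 0.04) passed, both lower (0.882% of all genes). The mural list had 13 genes lower and 5 higher, with a median of -0.06, and Acta2 (-0.01) and Pdgfrb (-0.05) hardly differed. Slc19a3 was the only endothelial and barrier gene of 28 that passed (median 0.01), against 0.324% of all genes higher. Abcg2, a drug efflux pump of capillaries, stood as high (0.73) but its arrays overlapped, with 5.51 to 6.67 in Con and 6.20 to 7.21 in CR (adjusted p = 0.240). None of 24 microglial and macrophage genes passed (median -0.01, with 1.21% of all genes passed), and Itgam (-0.35, adjusted p = 0.0746) had the smallest p.

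Genes of lipid synthesis, on which myelin depends, were mostly lower as well. In the cholesterol list 19 of 20 measured genes were lower, 15 without overlap (6.67% of all genes), and 5 passed, all lower (0.882% of all genes): Msmo1 (-0.47, SE 0.05), Cyp51 (-0.43, SE 0.05), Dhcr7 (-0.40, SE 0.05) and Nsdhl (-0.24, SE 0.04), which are enzymes of the later steps, and Srebf2 (-0.30, SE 0.04), the transcription factor that drives the pathway. Msmo1 measured 11.24 and 11.37 in Con-s, 11.20 and 11.20 in Con-l, 10.77 and 10.86 in CR-s, and 10.69 and 10.81 in CR-l, so the gap between the arms was larger than the spread within either. The median difference was -0.23 (-0.29 under saline, -0.14 under leptin). Of 24 genes of fatty acid and sphingolipid synthesis 18 were lower, 14 without overlap, and 4 passed, all lower, against the same shares of all genes. The desaturase Scd measured 9.02 and 9.46 in Con-s, 9.16 and 9.05 in Con-l, 8.56 and 8.42 in CR-s, and 8.31 and 8.53 in CR-l (log2 -0.72, SE 0.10, adjusted p = 0.0325). Its paralogue Scd2 (-0.26, SE 0.04), the polyunsaturated fatty acid desaturase Fads1 (-0.44, SE 0.05) and Ugt8 (-0.28, SE 0.05) fell with it. The promoter of Nsdhl (GRCr8, chrX:155817110-155817359, plus strand, RefSeq) is shown as the member with the most CCAAT boxes among those that passed, a motif known beside sterol elements in this pathway. Capitals mark CCAAT on either strand.
Nsdhl: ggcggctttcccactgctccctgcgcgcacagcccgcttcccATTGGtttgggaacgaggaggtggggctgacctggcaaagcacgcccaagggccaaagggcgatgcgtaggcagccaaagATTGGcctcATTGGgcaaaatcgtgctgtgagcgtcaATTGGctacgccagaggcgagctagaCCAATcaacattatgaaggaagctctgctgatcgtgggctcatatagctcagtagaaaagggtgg
It held 5 matches. At least 1 lay in 13 of the 16 cholesterol promoters found in RefSeq (81.2%) and in 34.3% of all promoters, and also in 16 of 20 promoters of the endoplasmic reticulum list (80.0%). Cyp51 and Dhcr7, both of which fell, had none in this window.

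**Figure D4:**
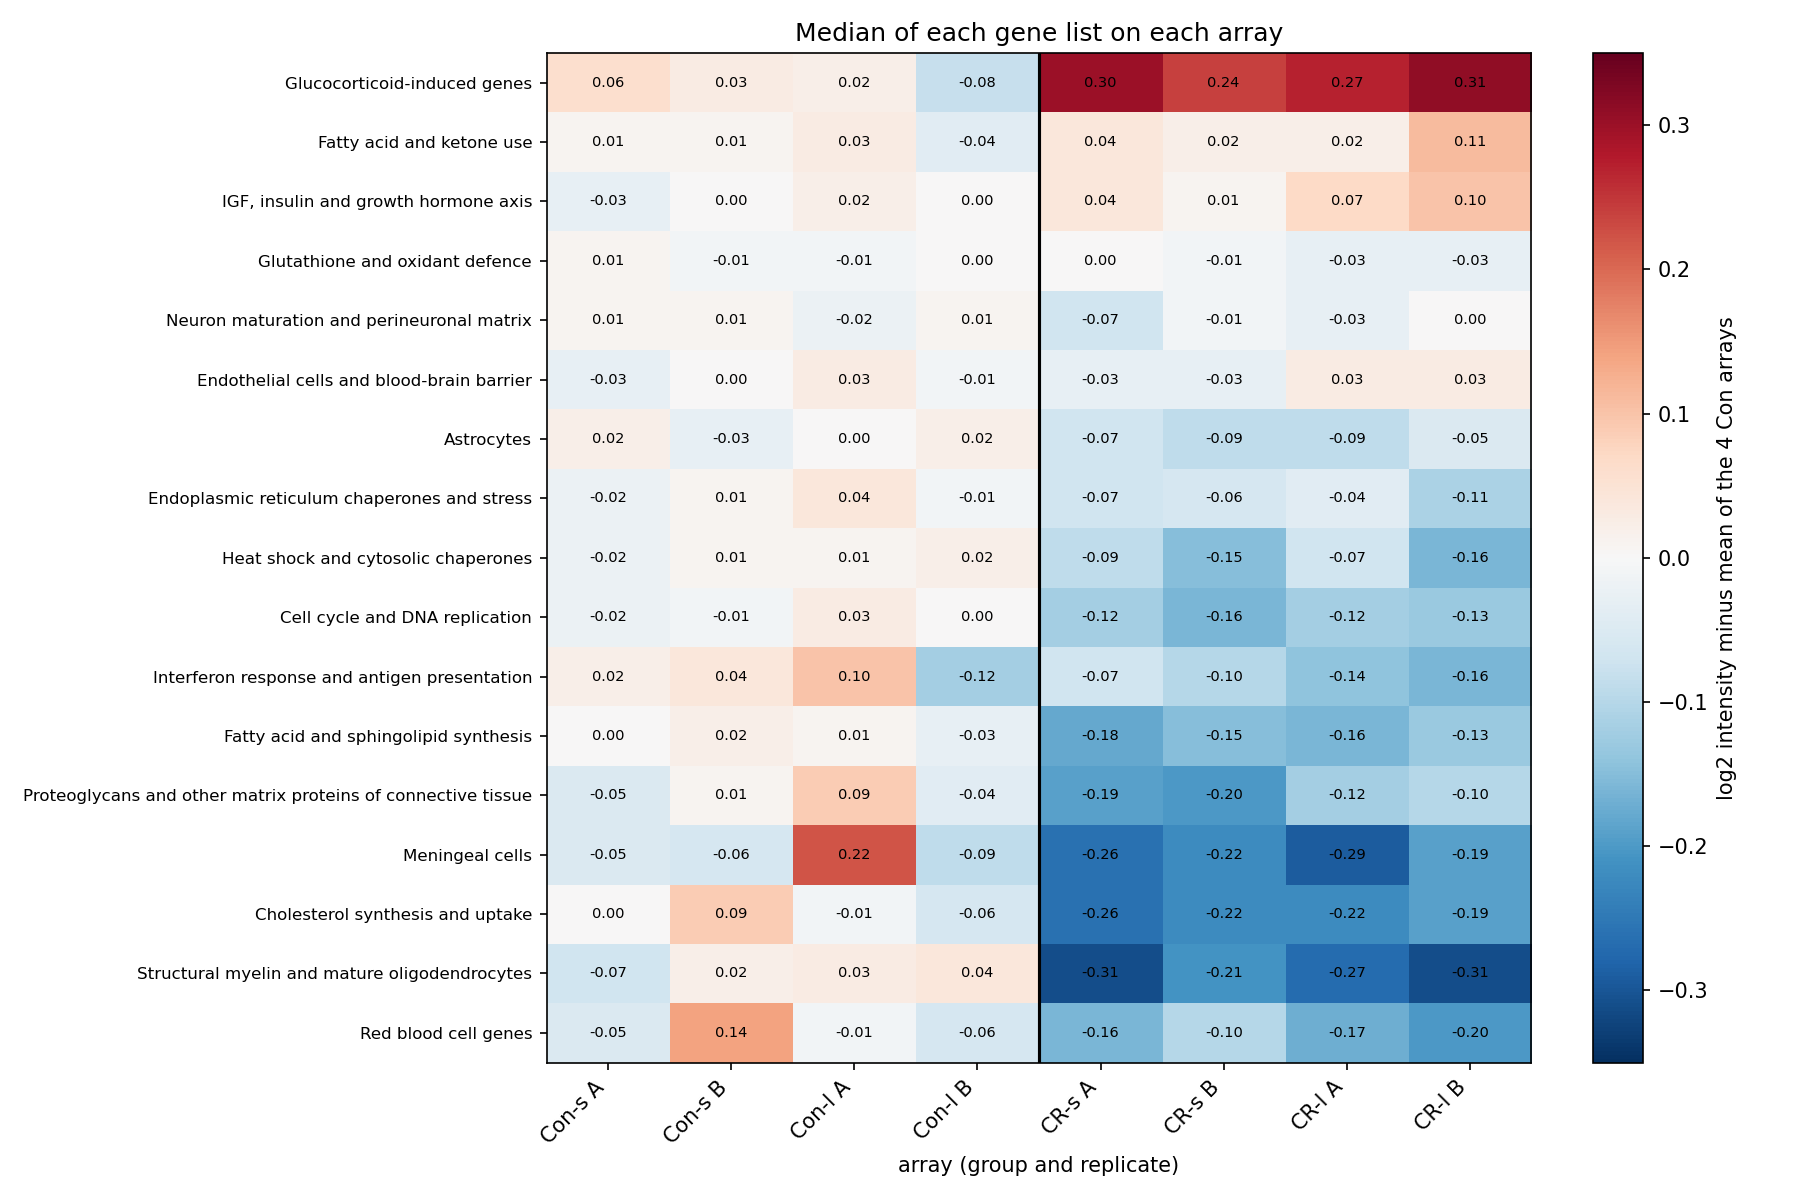
Median over the members of each of 17 gene lists (rows) on each of the 8 arrays (columns), as log2 intensity minus the mean of the 4 Con arrays, with values printed in the cells. The glucocorticoid row is at 0.24 or above on the 4 CR arrays and the myelin and cholesterol rows at -0.19 or below, and Con-l A stands out in the meningeal row at 0.22.

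Genes of dividing cells were mostly lower: 26 of 30 cell cycle genes, 11 without overlap (6.67% of all genes), with a median of -0.11. In this list 3 genes passed lower (0.882% of all genes). Top2a (-0.64, SE 0.11), Ccna2 (-0.43, SE 0.06) and Rrm2 (-0.43, SE 0.06) fell, as did Pttg1 (-0.59, SE 0.07), Smc4, Plk4 and Kif20a outside the list. Apart from Smc4 these genes lay below the array medians on every array, and Top2a read 6.34 to 6.57 in Con and 5.56 to 5.98 in CR. Aurkb, a mitotic kinase, stood apart from them at 0.68 (SE 0.15, adjusted p = 0.0948) with CR arrays of 8.20, 7.46, 7.51 and 7.45 against 6.86 to 7.11 in Con. No member passed in 23 of the 54 lists (1.21% of all genes passed), whose medians lay between -0.12 and 0.08. They included 54 ribosomal proteins, 43 genes of the respiratory chain, 21 of glycolysis, 25 of GABA receptors and synapses, 38 of monoamines, 32 sodium and calcium channels, 22 of thyroid hormone action and 26 of DNA methylation and chromatin.

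Of the 175 genes that passed, 104 were in no list, 30 higher and 74 lower. Some are named here after their values were seen, and no theme was tested. The falls included the semaphorin receptors Plxnb3 and Plxna3, the netrin receptor Unc5b, the axonal adhesion protein Cntn2, the sphingosine phosphate receptor S1pr5 (-0.62, SE 0.08), the tetraspanins Cd9 and Cd82, the receptor kinases Tyro3 and Ddr1, and the lipid transporter Abca2. Slc6a20a, an imino acid transporter (-0.68, SE 0.11), the carbonic anhydrase Car14 (-0.55, SE 0.08), the secreted bridging protein Mfge8 (-0.44, SE 0.04) and the ribonuclease Rnase4 (-0.50, SE 0.05) fell as well. Several of these, such as S1pr5, Plxnb3, Cntn2 and Abca2, are known from oligodendrocytes although they were not listed. Among the rises were the amino acid transporter Slc6a15 (0.35, SE 0.04), the citrate transporter Slc13a5 (0.27, SE 0.05), the inducible nitric oxide synthase Nos2 (0.31, SE 0.05), the lysosomal protease Ctss (0.25, SE 0.04), the electron transfer flavoprotein Etfb (0.25, SE 0.04), the O-GlcNAc hydrolase Oga (0.28, SE 0.04), the complement component C8g (0.48, SE 0.06), and Trmt6 and Trub1, which modify transfer RNA. These are small changes, and many rest on a narrow spread: Oga lay at 9.21 to 9.26 in Con and 9.45 to 9.57 in CR.

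Within each treatment alone, 2 arrays against 2, far fewer genes passed. Under leptin 3 of 14506 (0.0207%) did: Serpinh1 (-0.81), Rbm3 (1.67) and Enpp2 (-0.90), each with an adjusted p of 0.0339. This count was 3 without CR-l replicate A, with 1 gene in common, and 2 without Con-l replicate B, with 0 in common. In such fits the lone array left in a group is assumed to vary like the other groups. The count was 0 when any of the other 6 arrays was left out or when the 4 leptin arrays were fitted alone (limma, with 1408 to 2060 and 1945 genes at an unadjusted p under 0.05). Under saline none passed in limma, with 1233 genes at an unadjusted p under 0.05, against 2059 under leptin. The genes with the smallest p under saline were Alox15 (-1.65), Padi2 (-0.54), Pvr (-1.05), Rbm3 (1.13) and Enpp2 (-0.63). The differences under saline and under leptin share no array, so their signs can be compared. The saline p-values that chose the genes below used a spread pooled over all groups, leptin arrays included. The labels do not give litters, so saline and leptin samples may share litters. The shares that follow are therefore descriptions and not independent agreement. Under saline 493 genes (3.4%) were higher at an unadjusted p under 0.05, and 335 of them (67.95%) were also higher under leptin, where 50.51% of all genes were higher. Their median difference was 0.26 under saline and 0.08 under leptin. Another 740 genes (5.1%) were lower under saline, and 627 of them (84.73%) were lower under leptin, with medians of -0.23 and -0.16. Across all genes the differences under saline and under leptin correlated at 0.398, as a description, since genes are not independent.

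All 175 genes had the same sign under both treatments, as a choice on their average favours. The difference was larger under leptin in 137 of them (98 of the falls, 39 of the rises), with median sizes of 0.346 under saline and 0.452 under leptin. The share of all genes with a larger difference under leptin was not computed. More genes had an unadjusted limma p under 0.05 under leptin (2059) than under saline (1233), so the 137 are not read as a trait of the 175. The difference between the diet effects was tested as such, and no gene passed in limma (the lowest adjusted p was 0.278). Before adjustment 747 of the 14506 genes had a limma p under 0.05, 32 of them among the 175. The 175 were chosen by a test that used the same estimate of each gene's spread. A small spread favours both, so the 32 are not read as a result about the 175. Npy, for example, differed by 0.48 under saline and 1.03 under leptin, with an adjusted p of 0.898 for that gap. Pvr, a cell adhesion receptor of the nectin group, passed on average with a difference seen mainly under saline. It measured 7.81 and 7.80 in Con-s, 7.75 and 7.39 in Con-l, 6.78 and 6.72 in CR-s, and 7.41 and 7.67 in CR-l. The saline arrays were far apart and the leptin arrays overlapped (-1.05 and -0.03), but the adjusted p of that gap was 0.898. The smallest p for the gap was that of Or5b104, an odorant receptor near the bottom of the scale (2.33 to 3.11), which did not pass on average.

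**Figure D5:**
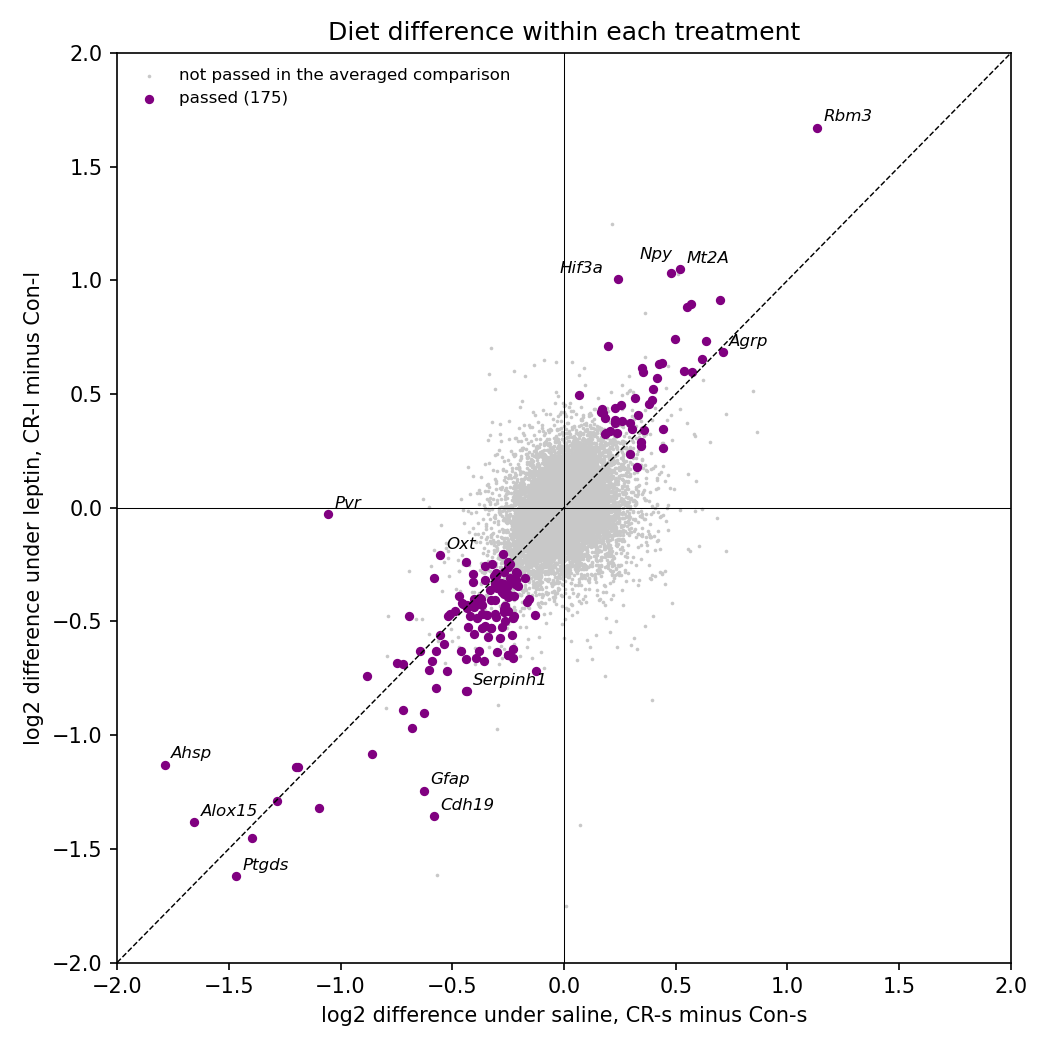
Log2 difference between CR and Con under saline (x axis) and under leptin (y axis), 1 point a gene, with the 175 genes that passed on average in purple and the line of equal differences dashed. Rbm3 lies at 1.13 and 1.67, Ptgds at -1.47 and -1.62, and Pvr at -1.05 and -0.03.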

How the data were processed

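Biotin-labelled cRNA of 8 hypothalamus samples was hybridised to 8 single-colour arrays. The authors deposited linear-scale intensities, 1 for each probe set and array, made with RMA in Affymetrix Expression Console, per the submitters' processing notes. Versions of these tools and a genome build for the array are not given in the sources used here. Before testing, intensities were log2-transformed with no offset and not normalized again. Of 29215 probe sets, 15310 had 1 gene symbol and 323 had several. Symbols were updated through the Entrez number for 15279 probe sets and through an accession for 6, and 25 kept the array's symbol. For 527 genes with several probe sets the one with the highest mean was used, which left 14506 genes. No filter on dim genes was applied, and detection calls were not used here. The number of arrays limits the precision.

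A single limma model (version 3.58.1, R 4.3.3, lmFit and eBayes) held 4 group means over 8 arrays, with 4 residual and 3.21 prior degrees of freedom. All p-values are two-sided. Adjustment (Benjamini-Hochberg) ran over the 14506 genes, with a threshold of 0.05. The script was tested on simulated data. The members and the 54 gene lists (1330 measured entries, 1221 different genes), which overlap in part, were chosen with earlier results of these data known. The rule for named genes took the 12 largest rises and 12 largest falls with all array values, 15 energy-balance genes whatever their result, members of lists that passed, up to 4 others of a list with the smallest p, and the 5 smallest p within each treatment. Mbp, Bmp4, Abcg2, Aurkb, Alox12, Cga, Acta2, Pdgfrb, Mt4, the marker genes and the genes named from outside the lists were chosen after their values were seen. Alternatives were another normalization, an offset, a filter on dim genes, other probe set rules, other variance settings, diet alone in the model, the replicate letter as a block, and each array left out in turn. Promoter windows came from RefSeq tables on GRCr8.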

Additional observations from a re-analysis of the deposited data

Results flagged for a closer look

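In 37 named genes each arm of 4 arrays was searched for a single array far from the others, 74 arms in all, by the gap to its neighbour as a share of the arm's range (Dixon's ratio, at its 95% critical value). Chance gives about 1 arm in 20, and 5 arms were found. Zbtb16 was lowest on CR-l replicate A, at 8.35, where the other CR arrays lay at 8.49 to 8.52. Ahsp was highest on Con-s replicate B, at 7.05 against 6.27 to 6.39. Hbb was lowest on CR-l replicate B, at 9.26 against 9.89 to 10.02. Tf was lowest in controls on Con-s replicate A, at 10.92 against 11.24 to 11.28. Stat3 was lowest in controls on Con-l replicate B, at 9.15 against 9.26 to 9.28. In Zbtb16, Ahsp, Hbb and Tf the arms did not overlap even with these arrays.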

How the results depend on the processing

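With 4 arrays an arm, all counts rest on few degrees of freedom, and signal over background is unknown. The averaged count of 175 became 345 with log2(value + 16), 609 over the upper 60% of genes by mean, 744 with trend and robust variance, 267 with diet alone in the model, 0 with all probe sets, and 0 to 27 with an array left out. It was 169 after quantile normalization, 177 after cyclic loess and 185 with the mean of probe sets. Within leptin the 3 genes became 24 after quantile normalization, 24 after cyclic loess, 143 with the offset, 249 over the upper 60%, 469 with trend and robust variance, 0 with all probe sets, 0 with the 4 arrays fitted alone and 0 to 3 with an array left out. Within saline none became 16 over the upper 60% and 66 with trend and robust variance. For the difference between treatments the range with an array left out was 0 to 1. With the replicate letter as a block, 87 genes passed on average (82 shared with the 175) and 0 within leptin. Deviations of same-lettered samples correlated at -0.0606 to 0.109, so the letters were not taken as a pairing. The cause of these changes was not tested. Of 620 recomputed values of named genes 410 kept their side of the threshold, 194 lost it, 1 gained it (Cartpt, with trend and robust variance) and 15 changed sign, all with an array left out: Avp ranged from -0.06 to 0.09, Crh from -0.07 to 0.01, Hcrt from -0.12 to 0.06, Pmch from -0.14 to 0.01, Mc4r from -0.03 to 0.22, Socs3 from -0.11 to 0.05 and Bdnf from -0.01 to 0.03. Of 918 list medians 871 moved by less than the spread between arrays.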

Other observations

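Some gene groups had no member that passed, against 1.21% of all genes. In the circadian list 14 of 18 genes were higher in CR (median 0.08), 4 of them without overlap (4.52% of all genes), and Cry2 (0.24, adjusted p = 0.0503), Per1 (0.25, adjusted p = 0.0785) and Per2 (0.25, adjusted p = 0.10), which repress the clock's own activators, had the smallest p-values. Among transcription factors of hypothalamic neurons 22 of 24 were higher (median 0.08), with 1 gene without overlap, a share near that of all genes (4.52%). Interferon response and antigen presentation genes were lower in 29 of 36 (median -0.11), 5 of them without overlap (6.67% of all genes). The class II gene RT1-Da read 5.89 to 6.53 in Con and 5.67 to 5.78 in CR (-0.49, adjusted p = 0.0681). Txnip, an arrestin-like protein induced by glucose, stood at 0.61 in the energy sensing list (adjusted p = 0.0842). Per1 also belongs to the glucocorticoid list, and these lists were not tested as sets.

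The 13905 probe sets without a single gene name were not tested in the comparison. In 5.42% of them the arms were fully apart, 409 with CR higher and 345 with CR lower, against 11.2% of named genes.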
